A study of Mus musculus with 4 samples.

Results

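The genes described here encode the initiation and elongation factors of cytosolic translation, the proteins that load ribosomes onto mRNA and move them along it. They were chosen by symbol: every gene named Eif1 to Eif6, Eef1 or Eef2 with at least 1 transcript of biotype protein_coding, leaving out Eif2s3x, Eif2s3y and the eIF2 kinases. This gave 62 genes of the 55536 mouse genes in the deposited gene tables, and 11 symbols of the same form with no protein_coding transcript stayed out. Their RNA was measured in T cells taken from the spleen of virgin male B6CASTF1/J mice at 66 days of age, F1 animals from C57BL/6 females crossed to CAST Eij males, and the labels name CD3. There was 1 group with no treatment and no second genotype, made of 4 biological replicates, called libraries 1 to 4 after their replicate numbers. Each came from 300 ng of RNA, prepared as ribosomal RNA-reduced libraries with a directional kit and synthetic spike-ins. The 4 samples carry 1 shared donor identifier and the labels do not say that each is a separate animal, so SDs and p-values measure only the spread between these samples.

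Initiation begins when eIF2 delivers the initiator tRNA to the small ribosomal subunit together with eIF1, eIF1A, eIF5 and the large scaffold eIF3. The cap-binding complex eIF4F, made of the cap binder eIF4E, the helicase eIF4A and the scaffold eIF4G, recruits that subunit to mRNA, and start codon recognition is followed by subunit joining through eIF5B. In elongation eEF1A brings each aminoacyl-tRNA to the ribosome, the eEF1B subunits reload eEF1A with GTP, and eEF2 moves the ribosome on by a codon. Resting T cells are known for low protein synthesis that rises sharply after activation, and mTORC1 controls part of this through the 4E-BP proteins, which sequester eIF4E.

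The libraries held 14584388 to 17335895 estimated counts, of which spike-ins took 0.299% to 0.347%. The T cell label fits its markers, since all 10 T cell markers stood at 10 TPM or more in every library and their summed level was 2894 to 3007 TPM. TPM is the deposited level per length, scaled to a fixed total in each library, so it can be compared between genes. Library 4 stands apart in markers of other cells: 8 B cell markers summed to 145 TPM there against 13.8 to 19.2 TPM in libraries 1 to 3, and 6 erythroid markers to 633 TPM against 15.3 to 62.5 TPM. Natural killer markers summed to 21.7 TPM in library 4 against 15.5 to 16.9 TPM elsewhere. The sum of neutrophil markers was highest in library 2, at 30.2 TPM against 9.37 to 10.2 TPM elsewhere. It was carried by S100a8 and S100a9, while Mmp9 was highest in library 1 and Elane in library 4. Of all the non-T markers only Pdgfra, a stromal gene, was at 0 in every library. In bulk RNA, fewer cells of a type and less RNA per cell cannot be told apart.

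Of the 62 genes, 59 had at least 1 TPM in every library and 48 had at least 10 TPM, which is 77.4% against 24.9% of 21938 protein-coding nuclear genes. A further threshold of 100 TPM was passed by 15 of them. Their median level was 38.0 TPM, against 0.478 TPM for all protein-coding nuclear genes. Together they held 0.983% ± 0.0232 of TPM and 1.59% ± 0.0273 of counts (SD, n = 4). Elongation factors made up 59.1% ± 0.788 of this TPM, and Eef1a1 by itself 40.9% ± 0.612. The plot of levels by role shows the spread, which ran from Eef1a1, ranked 2 among protein-coding nuclear genes, to Eef1a2 and Eif4e1b, which were listed at 0 in all 4 libraries.

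**Figure D1:**
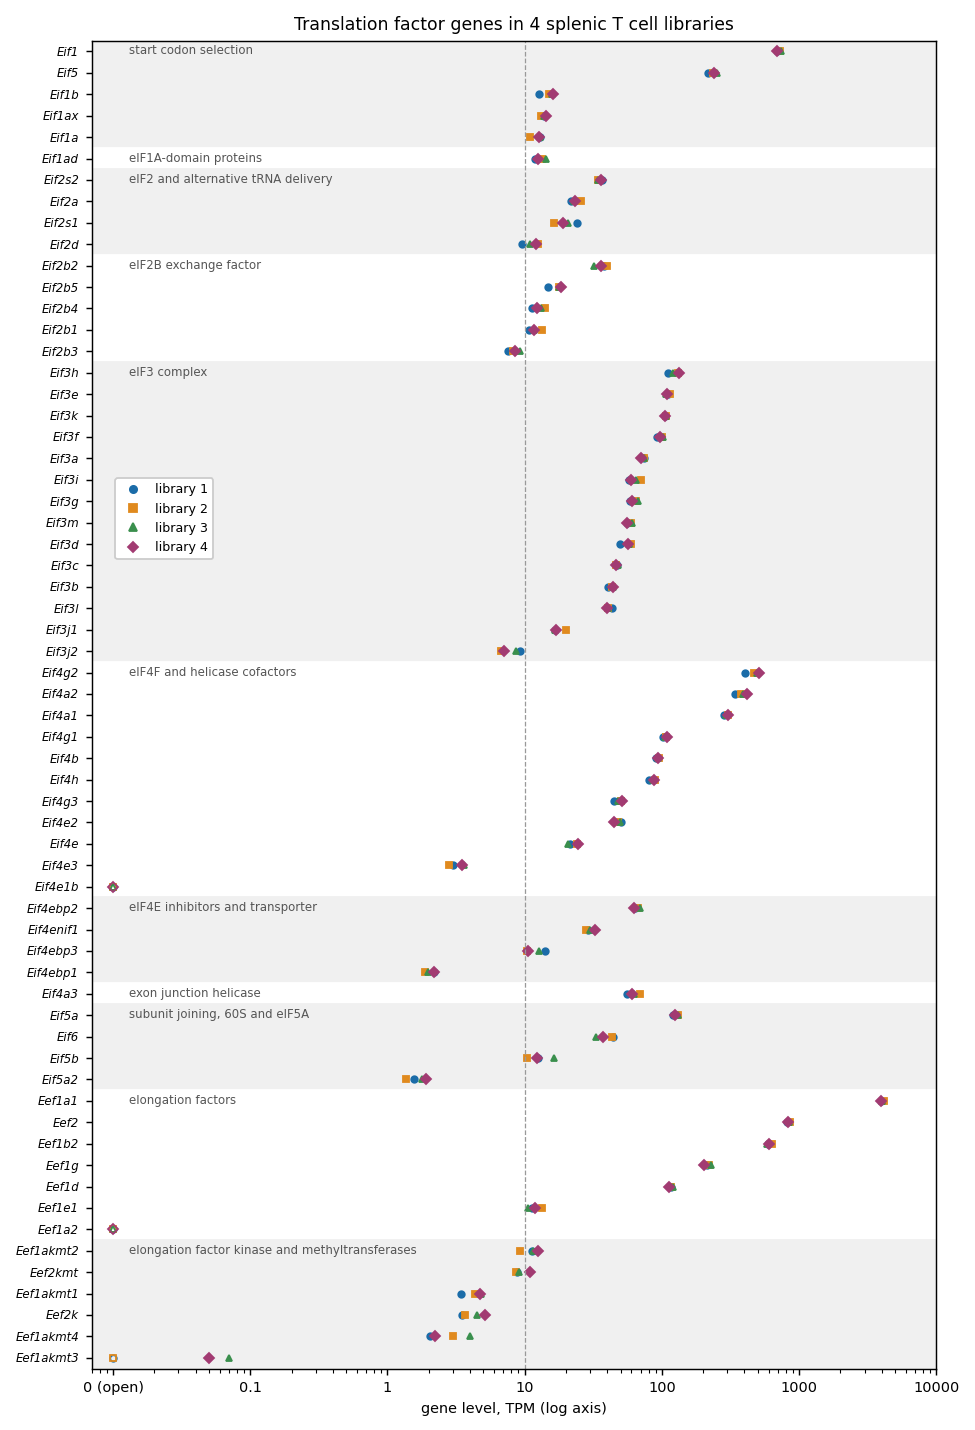
Level of each of the 62 genes in TPM (log axis), grouped by role, with a point per library and genes at 0 drawn as open points at the left edge; the dashed line marks 10 TPM. The 4 points of most genes lie close together, while the spread among genes of a role ranges from 3.11-fold for eIF2 and alternative tRNA delivery to 57.1-fold for start codon selection, and more in other roles.

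The start codon and the bases around it are shown for 6 genes: the 3 most abundant elongation factors, the pair of eIF1 genes that act at that step, and the member with an unusual start. Each line gives 10 bases before the start codon, the codon in capitals, and the bases after it, 5′ to 3′, in the most abundant protein_coding transcript with enough leader in GENCODE M21 (mm10).
Eef1a1: caaagcaaaaATGggaaagg
Eef2: atccgccaccATGgtgaact
Eef1b2: agccttcgccATGggattcg
Eif1: atcgtatcgtATGtccgcta
Eif1b: ctagtgtcgcATGtccacta
Eif4g2: agccgccaaaGTGgagagtg
The favourable bases of this context are a purine 3 bases before the codon, position -3, and G just after it, position +4. Eef1a1, Eef2 and Eef1b2 have both. Eif1 and its paralog Eif1b have neither, and as background eIF1 is the factor that makes the ribosome reject poor start sites. Eif4g2 encodes an eIF4G relative without the cap binder's docking site, and its annotated start is GTG, at position 111081547 of chromosome 7, minus strand. Among the 59 members of at least 1 TPM, each of which had a usable transcript, 28 had both favourable bases, 25 had 1 of them and 6 (10.2%) had neither. Over 10001 protein-coding nuclear genes of at least 1 TPM, 46.5% had both and 6.68% had neither, so as a group the members' contexts were near the background. The start was not ATG in 1 of 59 members and in 12 of the 10001 genes.

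Factors of start codon selection ranged 57.1-fold, from Eif1 down to Eif1a. Eif1 stood at 689, 721, 735 and 688 TPM in libraries 1 to 4, and Eif5, which activates GTP hydrolysis by eIF2, at 216, 236, 251 and 239 TPM. These ranges do not overlap, and Eif1 was 3.01 ± 0.138 times Eif5 within a library (SD, n = 4). The paralog Eif1b had 12.8, 15.1, 15.7 and 16.0 TPM. Both genes for eIF1A, which binds beside the start site and keeps the scanning ribosome open, were low: Eif1a had 12.9, 10.98, 13.0 and 12.7 TPM and the X-linked Eif1ax 13.8, 13.1, 13.8 and 14.4 TPM. Eif1ad, which carries an eIF1A domain, was at 13.0 ± 1.04 TPM, with 11.8, 13.4, 14.3 and 12.5 TPM in libraries 1 to 4.

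The genes of eIF2 and its exchange factor were modest next to these. Eif2s2, the beta subunit, had 36.4, 34.0, 34.0 and 35.8 TPM, and Eif2s1, the alpha subunit whose phosphorylation shuts down initiation, 24.0, 16.4, 20.8 and 19.1 TPM. Every library had more Eif2s2 than Eif2s1, at a quotient of 1.78 ± 0.250. Restricted to protein_coding transcripts, Eif2s1 was steadier, at 11.7 ± 0.815 TPM against 20.1 ± 3.21 TPM for the whole gene. Eif2a and Eif2d, which can place a tRNA on the ribosome without eIF2, had 23.4 ± 1.60 and 11.3 ± 1.31 TPM, and Eif2a read 21.9, 25.6, 22.7 and 23.4 TPM by library.

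Among the 5 subunits of eIF2B, the exchange factor that recharges eIF2 with GTP, Eif2b2 was highest at 37.8, 39.6, 32.2 and 36.2 TPM. Eif2b5, the catalytic subunit, followed at 14.8, 17.7, 17.9 and 18.5 TPM, and the other subunits lay between 8.40 and 12.7 TPM. The order changed on protein_coding transcripts, where Eif2b5 led at 17.2 ± 1.63 TPM and Eif2b2 had 10.2 ± 0.394 TPM. In Eif2b2, 71.8% of TPM sat on transcripts annotated as retained introns.

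The eIF3 complex, the scaffold that joins the small subunit to eIF4F, was moderately and evenly expressed. Its 12 genes other than those for subunit j ran from Eif3l at 41.0 TPM to Eif3h at 124 TPM, a 3.03-fold range, and 3.69-fold on protein_coding transcripts. The range over the 5 eIF2B genes was 4.34-fold for whole genes and 3.45-fold on protein_coding transcripts, so the order of these complexes depended on the transcripts counted. Eif3h had 111, 132, 121 and 133 TPM and Eif3e 111, 115, 107 and 109.7 TPM, so the ranges of these neighbours overlap. Eif3k varied least of all members of at least 1 TPM, at 107 ± 0.954 TPM, a coefficient of variation of 0.892%. Eif3a, the largest subunit, had 73.1 ± 2.08 TPM, Eif3b 43.1 ± 1.70 TPM and Eif3c 47.1 ± 0.689 TPM.

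Subunit j, which binds loosely and affects the mRNA channel, has a pair of genes. Eif3j1 had 16.8, 20.1, 16.7 and 17.0 TPM and Eif3j2, which has a single annotated transcript, 9.23, 6.68, 8.64 and 7.04 TPM. The deposited SD of read assignment was 7.40% of the count for Eif3j2 and 2.69% for Eif3j1, so their separate levels are uncertain. Whether the pair shares these uncertain reads was not tested. On protein_coding transcripts the pair lay together, at 8.47 ± 0.635 TPM for Eif3j1 and 7.90 ± 1.23 TPM for Eif3j2.

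Eif4g2, Eif4a2 and Eif4a1 followed Eif1 in level among the initiation genes when whole genes were counted. Eif4g2 had 406, 469.9, 496 and 508 TPM. It exceeded the classical scaffold genes Eif4g1, at 103, 106, 105 and 109.9 TPM, and Eif4g3, at 45.2, 50.8, 48.3 and 51.0 TPM, with no overlap between the ranges. Eif4g2 made up 75.2% ± 1.36 of the TPM of the 3 genes, and 70.4% ± 0.564 on protein_coding transcripts. Eif4a2 had 342, 379, 390.0 and 419 TPM and Eif4a1 286, 306, 295 and 306 TPM. The helicase cofactors Eif4b and Eif4h stood at 93.0 ± 2.17 and 85.9 ± 3.43 TPM.

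The cap binder Eif4e was lower than the helicase and scaffold genes when whole genes were counted. Eif4e had 21.4, 24.3, 20.8 and 24.6 TPM, so that Eif4g1 was 4.68 ± 0.303 times and Eif4a1 13.2 ± 0.808 times as high within a library. On protein_coding transcripts these quotients were 3.52 ± 0.129 and 1.63 ± 0.0495, and in the second quantification coding Eif4a1, at 6.42 TPM, lay below coding Eif4e, at 31.6 TPM. Eif4e2, whose protein binds the cap without joining eIF4G and is known for repressing translation, had 50.4, 47.6, 49.6 and 45.1 TPM, was above Eif4e in every library and was close to the scaffold gene Eif4g3. Eif4e3 had 3.00, 2.82, 3.59 and 3.51 TPM, and it shares a locus of 41637 bases on the same strand with Gm20696, whose level was 17.6 TPM. Eif4e1b, best known from oocytes, was listed at 0 in the gene tables, but the second quantification gave it 1.97 ± 0.518 TPM from 46.7 to 69.4 estimated counts, so its absence is not shown.

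The genes that hold eIF4E in check were led by Eif4ebp2, at 63.5, 66.8, 69.4 and 62.9 TPM. Eif4ebp1 had 2.19, 1.87, 1.96 and 2.18 TPM, so that its mean was 32.0-fold lower. That fold was 78.2 on protein_coding transcripts, where Eif4ebp1 had 0.84 TPM, and the second quantification gave 4.998 TPM for Eif4ebp1 and 71.4 TPM for Eif4ebp2. Eif4ebp3 read 11.95 ± 1.78 TPM, with an assignment SD of 7.09% of its count, and it overlaps the same-strand gene AC115631.1. Summed, the 3 genes were 3.53 ± 0.440 times Eif4e within a library (SD, n = 4), and 3.66 ± 0.305 times on protein_coding transcripts. Eif4enif1, which carries eIF4E into the nucleus, had 29.1, 28.1, 29.8 and 32.8 TPM.

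Of the remaining Eif genes, Eif5a, which was not counted with the elongation factors, led with 121, 132, 131 and 125 TPM. Its product helps the ribosome past stalling sequences and is the known carrier of hypusine, a modified lysine. The paralog Eif5a2 had 1.57, 1.37, 1.8 and 1.91 TPM, 76.6-fold lower by the means. Eif6, which keeps the large subunit from joining too soon, had 44.2, 43.5, 33.3 and 37.2 TPM, and Eif5b, the GTPase of subunit joining, 12.9 ± 2.43 TPM. Eif4a3, a helicase of the exon junction complex and not of eIF4F, had 56.2, 69.2, 62.9 and 60.7 TPM.

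Elongation was dominated by Eef1a1, at 3967, 4137, 4015 and 3959 TPM, and Eef2, at 818, 860.1, 838 and 837 TPM. Together these genes held 49.4% ± 0.660 of the members' TPM, and 60.02% ± 0.320 on protein_coding transcripts, so the pair made up a larger share when other transcripts were left out. Their quotient hardly moved, at 4.79 ± 0.0480 (4.73 to 4.85). The exchange factor genes followed, with Eef1b2 at 591, 632, 583 and 608 TPM, Eef1g at 217 ± 10.8 TPM and Eef1d at 117 ± 3.09 TPM. Eef1e1, part of the tRNA synthetase complex, had 11.4, 13.3, 10.6 and 11.9 TPM.

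Eef1a2, the paralog used by muscle and neurons, had 0 counts in every library and 0 TPM in the second quantification as well. Against a floor of 3 counts per library, which is 0.0855 to 0.103 TPM for this gene, Eef1a1 was at least 38295-fold higher in every library. Such floors cover counting error only. The enzymes that modify elongation factors were low: Eef1akmt2 had 11.4, 9.21, 11.4 and 12.5 TPM and Eef2kmt 8.86, 8.58, 9.05 and 10.96 TPM. Eef2k, the kinase that inactivates eEF2, had 4.21 ± 0.788 TPM, Eef1akmt1 4.32 ± 0.618 TPM and Eef1akmt4 2.82 ± 0.879 TPM. Eef1akmt3 lay at 0.0300 ± 0.0356 TPM, with a mean of 1.25 counts, too few to call.

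The 11 pairs of related genes, which need not do the same step, were compared by the log2 ratio of their TPM within each library, after adding 0.1 to each. With 4 libraries the smallest p that the exact two-sided sign-flip permutation test can give is above 0.05, so no pair could pass a threshold, and all 11 gave that smallest value before and after Benjamini-Hochberg adjustment. In each pair the 4 libraries had the same sign, and most ratios were many SDs from 0. Eif1 exceeded Eif1b by 5.57 ± 0.135 and Eif4e exceeded Eif4e3 by 2.78 ± 0.229 (log2, SD, n = 4). Eif4g1 exceeded Eif4g3 by 1.12 ± 0.0474. Eif4e lay below Eif4e2, with a log2 ratio of -1.08 ± 0.189.

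Some ratios depended on which transcripts were counted, as the plot of paired ratios shows. Eif1 over Eif1b was 4.63 ± 0.179 on protein_coding transcripts, and Eif4ebp1 over Eif4ebp2, at -4.94 ± 0.167 for whole genes, was -6.20 ± 0.558 there and -3.87 in the second quantification. The ratio of Eif4a1 to Eif4a2 was -0.36 ± 0.0881 for whole genes, with -0.26, -0.31, -0.40 and -0.45 in libraries 1 to 4, and -1.04 ± 0.105 on protein_coding transcripts. Eif1a over Eif1ax was -0.15 ± 0.0768 for whole genes, turned to 1.05 ± 0.0753 on protein_coding transcripts, and was 1.05 in the second quantification. For Eif3j1 over Eif3j2, the 1.16 ± 0.327 of whole genes shrank to 0.11 ± 0.286 on protein_coding transcripts, where the libraries straddled 0. Restricting the count to coding transcripts was chosen after the values had been seen.

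**Figure D2:**
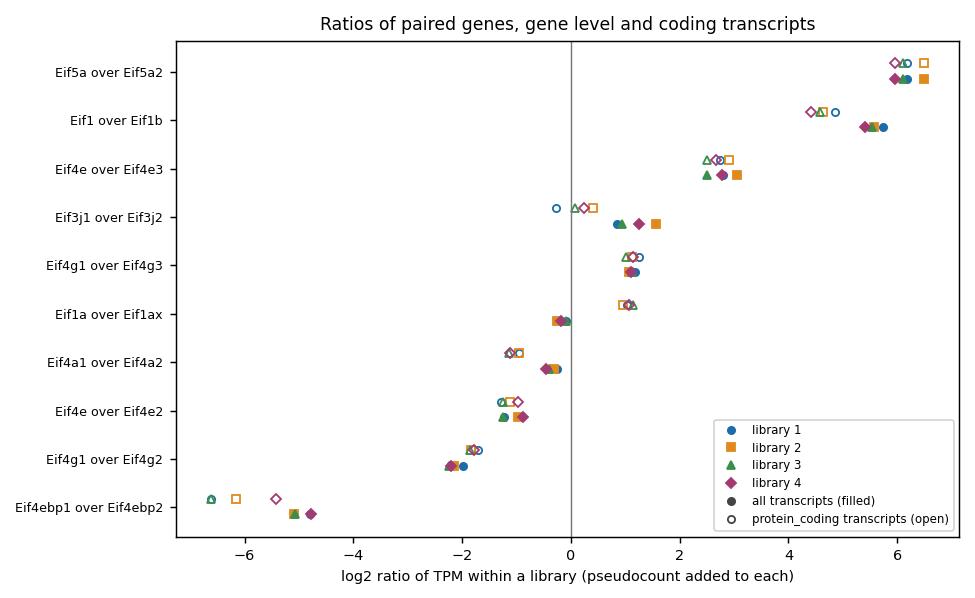
Log2 ratio of TPM (horizontal axis) within each library for 10 pairs of genes, with filled points for all transcripts of a gene and open points for protein_coding transcripts alone; Eef1a1 over Eef1a2 is left out because Eef1a2 is at 0. The open points of Eif1a over Eif1ax lie right of 0 at 1.05 on average, and the filled points left of it at -0.15.

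The transcript tables split each gene over its annotated transcripts, so the part of a gene's TPM on protein_coding transcripts can be read. In a total RNA library, unspliced and partly spliced RNA is sequenced too, and a short transcript takes a large TPM from few reads. The median coding share was 74.7% over the 59 members of at least 1 TPM on average, against 72.2% over 10141 protein-coding nuclear genes. It fell below 50% in 10 members, which is 16.9% against 23.3% of those genes. Measured by counts, the members' median was 89.3%, and 2 members were below 50%. As a group the members were thus near the background, and the plot of transcript types shows that a few of them stand apart from the rest.

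**Figure D3:**
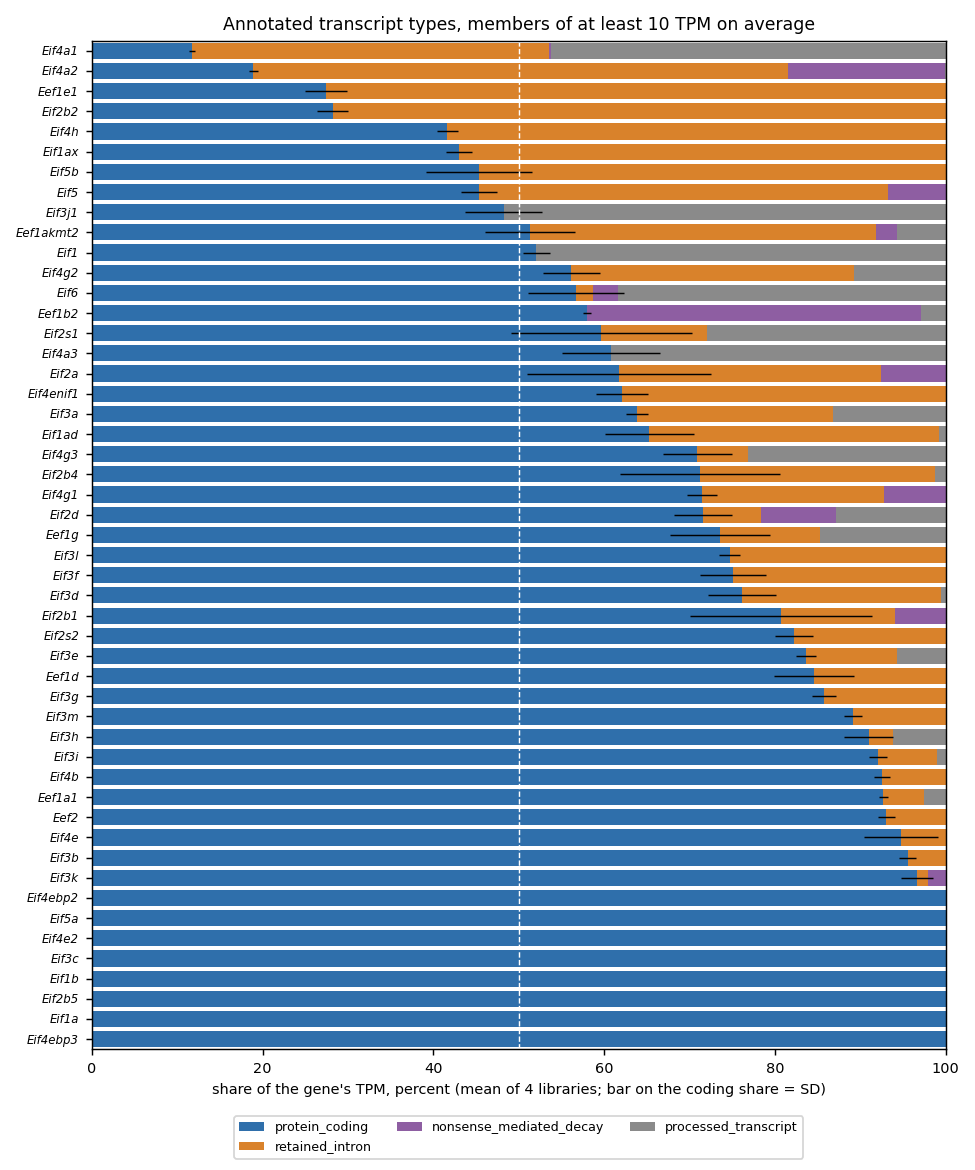
Share of each gene's TPM (percent, mean of 4 libraries) on transcripts of each annotated type, for the 50 members of at least 10 TPM on average, with the SD of the protein_coding share as a black line. Eif4a1 at 11.8% and Eif4a2 at 18.9% have the lowest coding share, and 8 genes lie at 100%.

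The helicase genes Eif4a1 and Eif4a2 had the lowest coding shares. In Eif4a1, protein_coding transcripts held 11.8% of TPM and 16.7% of counts, retained introns 41.8% of TPM and processed transcripts 46.2%. Its 1 protein_coding transcript, Eif4a1-213, had 32.3, 36.6, 34.6 and 36.9 TPM. The second quantification divided the gene differently and gave Eif4a1-213 only 6.42 TPM. The assignment SD was 1.52% of the gene's count, which concerns the whole gene and not the split among its transcripts. In Eif4a2, protein_coding transcripts held 18.9% of TPM and 39.0% of counts. Retained introns held 62.7% of its TPM and transcripts annotated for nonsense-mediated decay 18.3%. Its coding TPM was 62.6, 70.8, 76.4 and 80.4 in libraries 1 to 4.

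Both helicase genes carry small nucleolar RNA genes in their introns, and this was the most conspicuous feature of their loci. Small nucleolar RNAs are cut from introns and guide the chemical modification of ribosomal RNA. Gm22988, inside Eif4a1 at chr11:69669635-69669778 (minus strand), had 3946, 3057, 3564 and 3846 TPM, 12.1 times its host by the means. Gm26447, inside Eif4a2 at chr16:23111301-23111429 (plus strand), had 2727, 2073, 2576 and 2736 TPM, 6.61 times its host. Their sequences, from the GENCODE M21 transcripts, are printed with the ACA triplet nearest the 3′ end in capitals, the mark that gives box H/ACA guides their name.
Gm22988: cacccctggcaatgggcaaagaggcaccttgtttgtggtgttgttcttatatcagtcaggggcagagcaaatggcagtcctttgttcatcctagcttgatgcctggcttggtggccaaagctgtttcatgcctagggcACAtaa
Gm26447: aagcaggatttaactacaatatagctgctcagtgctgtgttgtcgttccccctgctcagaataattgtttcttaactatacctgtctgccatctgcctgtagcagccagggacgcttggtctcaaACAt
The triplet ends 3 bases before the end of Gm22988 and 1 base before that of Gm26447. By reads the order was the reverse, with fewer counts for the small RNAs than for their hosts: Gm22988 had 2579 counts on average and Eif4a1 5736, Gm26447 had 1192 and Eif4a2 7904. Both small RNAs, with Gm23262 in Eif4g2 (540 ± 52.6 TPM), were lowest in library 2, where their hosts were not. Gm25835, a further one in Eif4a1, had 461 ± 83.2 TPM. All 4 were listed at 0 in the second quantification.

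Some host transcripts have an exon across a small nucleolar RNA. In Eif4a1 these were 3 of 13 transcripts with 27.4% ± 1.26 of the gene's TPM, and in Eif4a2 8 of 25 with 46.3% ± 1.26. Eif5 had 2 of 17 with 20.3% ± 0.607. None of these host transcripts is protein_coding. By counts the shares were 45.1%, 29.8% and 25.8%. Transcripts across Gm22988 held 14.5% of the TPM of Eif4a1, and those across Gm26447 8.13% of that of Eif4a2. Other Eif4a2 transcripts crossed small RNAs at 0 TPM, with 13.9% across Gm24201 and 12.5% across Snord2. Snora28, in Eif5, was also at 0 TPM. Eif4a1-202, a retained intron of 3167 bases that spans Gm22988, took 2171 of the gene's counts on average. Whether reads of the small RNAs added to the hosts' retained introns was not tested.

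**Figure D4:**
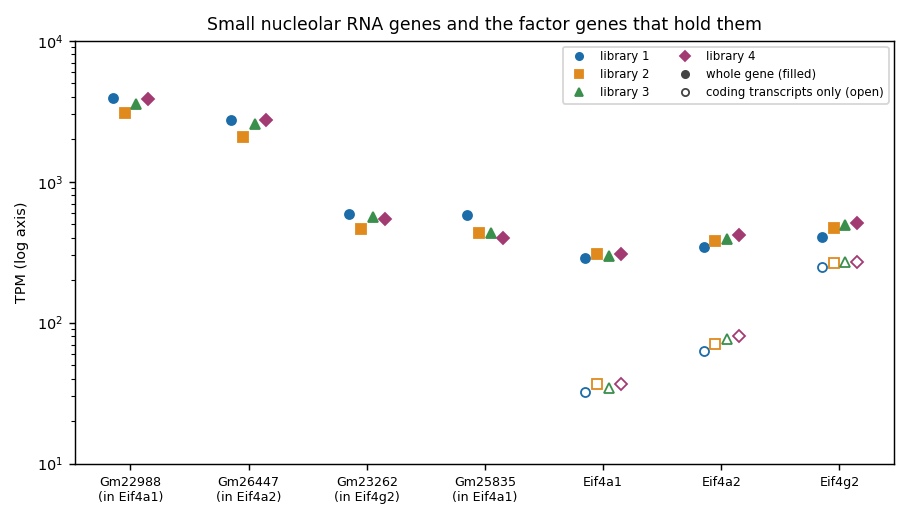
TPM (log axis) of the 4 small nucleolar RNA genes above 100 TPM inside translation factor genes, and of their 3 hosts, with a point per library, filled for the whole gene and open for protein_coding transcripts of the hosts. Gm22988 lies at 3057 to 3946 TPM, above every host value, and the open points of Eif4a1 lie between 32.3 and 36.9 TPM.

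In 7 of the 50 members of at least 10 TPM the most abundant transcript was not protein_coding, which is 14.0% against 15.5% of 5894 protein-coding nuclear genes. They were Eif1, Eif5, Eif1ax, Eif3j1, Eif4a1, Eef1e1 and Eif6. For Eif1 it was Eif1-202, a processed transcript of 383 bases at 283 ± 15.2 TPM, ahead of a protein_coding transcript of 1322 bases at 249.7 ± 17.7 TPM, though the latter had 5006 counts and Eif1-202 1309. Eif1ax-202, a retained intron of 416 bases, held 57.0% of its gene's TPM on 40.5 counts against 491 for its 1 protein_coding transcript. Eif3j1-202 likewise held 51.7% of TPM on 74.3 counts. In Eef1b2, 39.1% of TPM was on transcripts annotated for nonsense-mediated decay, and its coding transcripts held 58.0%. Eef2 at 93.1%, Eef1a1 at 92.7%, Eif4b at 92.6% and Eif3k at 96.7% were nearly all coding.

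Variation between the libraries was tested with edgeR's goodness-of-fit test on rounded counts, which asks whether a gene's 4 counts differ by more than its expression level predicts. Over 13118 genes tested, 183 passed an adjusted p of 0.05 (Benjamini-Hochberg), a share of 1.4%, and 603 had an unadjusted p below 0.05, a share of 4.6%. None of the 59 members that passed the filter on low counts was called, and 0 had an unadjusted p below 0.05. With DESeq2 size factors the members' counts were also 0 and 0. The largest statistic among them belonged to Eif3j2 (edgeR adjusted p = 0.99999, rank 792), which was highest in library 1. This does not show that no member differed. With simulated counts, 65.3% of 98 genes raised 2-fold in a library were called and 94.9% of 98 raised 4-fold. Over all tested genes, smaller differences would thus often be missed. The raised genes were drawn at random from all tested genes, so the shares for the members, at their own levels, were not measured.

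The TPM values were accordingly close. The median coefficient of variation was 7.69% over the 59 members, against 9.69% over protein-coding nuclear genes of at least 1 TPM on average. From 10 TPM up these medians were 5.85% and 7.60%, and from 100 TPM up 3.32% and 4.51%. The coefficient lay under 5% in 23 members and at 15% or more in 5. The most variable was Eef1akmt4, at 31.2% and 49.0 counts on average. By TPM, 30 of 59 members were lowest in library 1, and the same share over all genes was not computed. On scaled counts 32 of 59 lay above their own mean there, against 50.5% of all tested genes. The members' share of all TPM was lowest in library 1, at 0.952%. Their share of protein-coding nuclear TPM was lowest in library 4, at 2.81%.

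On scaled counts, small shared shifts remained. The members' log2 CPM, the count scaled by library size, minus each gene's own mean averaged 0.0016, 0.0335, 0.0038 and -0.0388 in libraries 1 to 4, while the mean over all tested genes was -0.0079, -0.0194, -0.0017 and 0.0290. The medians of the members were 0.0075, 0.0489, -1.5e-05 and -0.0495, and those of all tested genes lay between 9.7e-05 and 0.0033. In library 2, 45 of 59 members lay above their own mean, and in library 4, 16 of 59, against 50.04% and 51.1% of all tested genes. No test was made of these shifts, which the plot of deviations shows gene by gene. The eIF3 genes averaged -0.07 and the elongation factors -0.06 in library 4, and 7 of 9 role groups of several genes were below 0 there. Library 4 is the library with the high B cell and erythroid markers given above, whose part in this was not tested. It also had the fewest counts, 14584388, and library 2 the most, 17335895. The part of depth in these shifts was not tested either. Without library 4, 43 of 59 members lay above their own mean in library 2 and their mean deviation there was 0.0205.

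**Figure D5:**
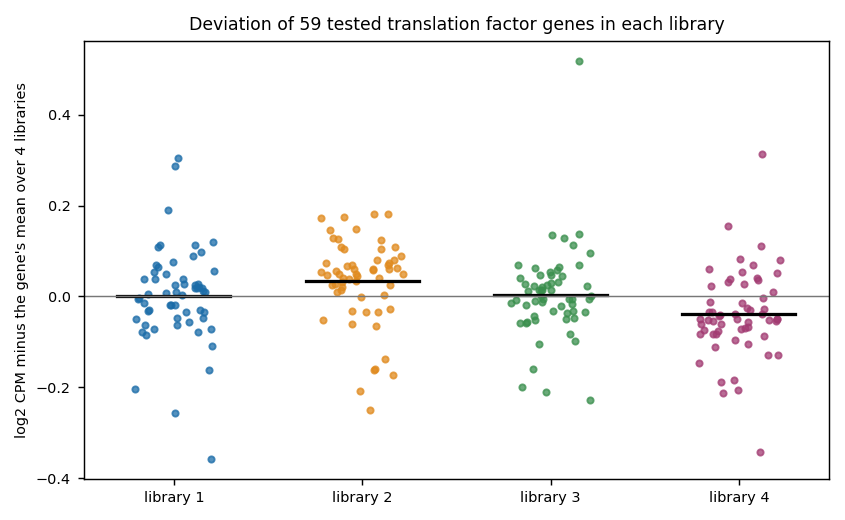
Log2 CPM of the 59 tested members minus each gene's mean over the 4 libraries (vertical axis), a point per gene, with the mean of each library as a black bar. The bars lie at 0.0335 in library 2 and -0.0388 in library 4, and single genes lie on both sides of 0 in every library.

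Genes that act on these factors were read from 5 lists outside the members. In the list of eIF2 kinases and the integrated stress response, 1 of 9 tested genes was called by edgeR's goodness-of-fit test, Atf4, the transcription factor whose mRNA is translated when eIF2 is phosphorylated. Atf4 had 69.6, 92.4, 104.7 and 102 TPM (edgeR adjusted p = 0.0440), lowest in library 1, and the call was lost without library 1 (adjusted p = 0.9999) or library 3 (0.308), without the filter on low counts (0.0783), with common dispersion (0.569) and in the second quantification (0.0590). The list was led by Ppp1r15a, which targets a phosphatase to eIF2 alpha, at 279 ± 24.8 TPM.

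In the other 4 lists 0 tested genes were called and 0 had an unadjusted p below 0.05 in edgeR. Among 12 genes of mTORC1 and of the 4E-BP or eIF4 kinases, Pdcd4, an inhibitor of eIF4A, had 131 ± 5.86 TPM and Mknk2, a kinase of eIF4E, 96.6 ± 2.07 TPM, and 11 were at 10 TPM or more in every library. Pabpc1, which binds the poly(A) tail and eIF4G, had 615 ± 34.0 TPM and Paip2, its inhibitor, 66.3 ± 1.87 TPM. Gspt2 was at 0.0225 ± 0.0450 TPM and was not tested. In hypusine and diphthamide synthesis, which modify eIF5A and eEF2, Dhps had 34.9 ± 2.16 TPM and Dph5 22.3 ± 1.90 TPM. Mitochondrial factors were led by Tufm at 18.1 ± 1.93 TPM and Gfm1 at 10.5 ± 1.04 TPM. Their list median of 9.01 TPM was below the 38.0 TPM of the cytosolic factors and above the 7.475 TPM of hypusine and diphthamide synthesis.

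The second quantification, a transcript table made from the reads and not from the alignment to the transcriptome used for the first, gave higher values for most members: 57 of 59 were above the first, with a median ratio of 1.32, close to that of all protein-coding nuclear genes, and a range of 0.611 to 2.44. The 5 largest ratios belonged to Eif4ebp1 (2.44), Eif4a2 (2.17), Eif2b1 (1.84), Eef1akmt2 (1.70) and Eif3g (1.59), and the 5 smallest to Eif1ax (0.611), Eif2b2 (0.930), Eef2 (1.08), Eef2k (1.08) and Eif4ebp2 (1.09). Of all members, 24 overlap another gene that is not a small RNA, 19 of them on the other strand. Where counting did not use strand, reads of such genes cannot be told apart.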

How the data were processed

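Total RNA of 4 splenic T cell samples of 1 group was quantified by the authors, per library, against mm10 with GENCODE M21, per the deposited text. Aligner and quantifiers: not given in the sources used here. Expected counts, as deposited, estimate the reads of a gene or transcript, and were rounded to whole numbers for tests. The deposited TPM values divide by length and sum to a fixed total over all targets, so abundant short RNAs lower all others. FPKM, also deposited by the authors, divides by length and by the counted reads, per the file headers, and gave an alternative for the pair ratios. Within a library it differs from TPM by 1 factor, so it can change a pair ratio only through the pseudocount and rounding and is no check of it. The deposited percent values give a transcript's share of its gene. The deposited posterior SD of a count is given as a percent of the count. Reads of CAST/EiJ alleles were assigned to the C57BL/6 reference.

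The 62 genes and all gene lists were chosen with earlier results of these data known. A table of transcripts with a target_id column gave the second quantification, summed per gene. Levels are mean and SD of 4 libraries; members and pathway or marker genes are named by a rule: the 2 highest of each role group or list, the genes of each pair, called genes, members of at least 10 TPM with a leading transcript that is not protein_coding, and the 5 extreme ratios between quantifications. Other members are named for context. Variation was tested with edgeR 4.0.16 (R 4.3.3) on counts, with an intercept only, trended dispersion, TMM, filterByExpr and Benjamini-Hochberg at 0.05, and the procedure was checked on simulated counts for 12891 genes. Pairs used a pseudocount of 0.1 and an exact sign-flip test. Spike-ins and the numeric identifiers, at most 8.75e-05% of counts, stayed out of tests. A floor of 3 counts is 0.173 to 0.206 CPM. Python 3.11.15, scipy 1.17.1, pandas 2.3.3 and DESeq2 1.42.0 (size factors only) were used.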

Additional observations from a re-analysis of the deposited data

Results flagged for a closer look

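Within a group of 4 libraries, a value was singled out where its gap to the nearest other library took up most of the group's range. Of 59 member levels examined 4 met this, where chance alone flags about 1 in 20 groups, and of 10 pair ratios 0 did. Eif1a, a gene for eIF1A, was lowest in library 2 at 10.98 TPM, against 12.7 to 13.0 TPM in the others. Eif3a, the largest eIF3 subunit, was lowest in library 4 at 69.97 TPM, against 73.9 to 74.4 TPM. Eif3b was lowest in library 1 at 40.59 TPM, against 43.6 to 44.2 TPM. Eif3j1 was highest in library 2 at 20.08 TPM, against 16.7 to 17.0 TPM, while Eif3j2, the other gene of subunit j, was lowest there. Read assignment was uncertain for both.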

How the results depend on the processing

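No paired analysis was possible because the series holds 1 group. Of 62 member levels, 58 moved by more than their SD in the second quantification (59 higher) and 44 on protein_coding transcripts only. These are a part of a gene's transcripts, so a level on them can be higher only by rounding, as 4 were. With TPM rescaled to protein-coding nuclear genes 60 moved (60 higher). That outcome was fixed in advance, since the rescaling raises all genes of a library by 1 factor and leaves only genes at 0 unmoved. The count of called genes over all genes, 183, was 279 without a filter on low counts, 353 with common dispersion and 116 to 146 when a library was left out; 0 members were called under each of these settings, with DESeq2 size factors, with a minimum of 50 counts or in the second quantification, and 1 had an unadjusted p below 0.05 with common dispersion, in the second quantification and without replicates 3 or 4. The log2 ratio of Eif1a to Eif1ax, -0.15, turned to 1.05 in the second quantification, to 1.05 on protein_coding transcripts only and to 1.34 on protein_coding transcripts of the second quantification. That of Eif3j1 to Eif3j2, 1.16, turned to -0.16 on protein_coding transcripts of the second quantification. The percent of TPM held by the members, 0.983, was 1.40 in the second quantification, 2.86 with TPM rescaled to protein-coding nuclear genes and 0.751 on protein_coding transcripts only. By counts the median coding share was 89.3% in place of 74.7%, and 2 members in place of 10 lay under 50%. Alternatives restricted to protein_coding transcripts, by share of counts, or without library 4 for the deviations, were chosen after seeing the data. The rise under the rescaling is arithmetic, and the cause of the other changes was not tested. Depth limits Eef1akmt3, Eef1a2 and Eif4ebp1 most, while for Eif4e1b the quantifications disagree.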
